A study of Mus musculus with 8 samples.

Results

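The CCR4-NOT complex is the main deadenylase of mammalian cells, the enzyme that shortens poly(A) tails and so starts the decay of mRNA. The RNAs of 10 of its subunits were followed through mouse oocyte maturation and in MII oocytes labelled as overexpressing BTG4. The members were taken by symbol from the deposited tables, and all 10 were found, among 15962 genes in both sets of tables and 13968 genes that passed the filter on low values. All 10 passed it. They comprised 4 catalytic subunits (*Cnot6*, *Cnot6l*, *Cnot7* and *Cnot8*), the scaffold *Cnot1*, and 5 others (*Cnot2*, *Cnot3*, *Cnot9*, *Cnot10* and *Cnot11*).

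There were 8 libraries, 2 in each of 4 groups, with 15 oocytes per library. GV oocytes (germinal vesicle, held in meiotic prophase) and MII oocytes (held in metaphase of the second division) formed the control set, which the labels call WT, and came from culture in vitro. The injection set held MII oocytes given RNA for wild-type BTG4 (Btg4wt) or for BTG4 with phosphorylated serines and threonines replaced by alanine (Btg4tm). The study's oocytes came from ICR female mice 6 weeks old. The endogenous *Btg4* gene was intact in all 4 groups as far as the labels say, and how much of the oocyte's own BTG4 protein remained after injection was not measured here. The sources used here do not say whether the control oocytes were injected with anything, and they do not say whether libraries came from separate mice, so p-values measure the spread between libraries, which may be technical.

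In the complex, CNOT1 is the long scaffold on which the other subunits sit. CNOT6 and CNOT6L are paralogs of the CCR4 type of nuclease, and CNOT7 and CNOT8 are paralogs of the CAF1 type. One of each type is bound at a time, and CNOT7 or CNOT8 links the CCR4 type to CNOT1. CNOT2 and CNOT3 form the NOT module, CNOT9 docks RNA-binding adaptors, and CNOT10 and CNOT11 form a module at the other end of the scaffold. BTG4 is an adaptor that binds the CAF1 type of subunit and brings the complex to maternal mRNA. Fully grown oocytes do not transcribe, so their mRNA is only stored, translated or destroyed, and dormant mRNAs that carry a cytoplasmic polyadenylation element (CPE) near the 3′ end have their tails lengthened during maturation.

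The 3′ ends of the subunit RNAs are shown because the libraries were primed with oligo(dT), so that a measured level depends both on how many molecules there were and on their tails. In the last 100 bases of the chosen GENCODE M21 transcripts, a CPE (TTTTAT or TTTTAAT, sense strand only) was present in *Cnot7*, *Cnot3* and *Cnot1*, and a polyadenylation signal (AATAAA or ATTAAA, sense strand only) in *Cnot6*, *Cnot7*, *Cnot2*, *Cnot3*, *Cnot9* and *Cnot11*. These searches allow a TTTTAT and an ATTAAA to share bases. Among 19197 coding genes with a window of that length, 17.5% held such a CPE, 76.8% a signal and 13.9% both. *Cnot6l* and *Cnot10* held neither, and *Cnot8* had no complete annotated 3′ end. The sites are written 5′ to 3′ on the transcript strand with the motifs in capitals (AATAAA in all, TTTTAT also in *Cnot7* and *Cnot3*, where it lies 3 bases from the signal).
*Cnot7*, chr8:40493036-40493065, minus strand of GRCm38: ttaaggtacaTTTTATatcAATAAAaatac
*Cnot3*, chr7:3661075-3661104, plus strand: atttatgAATAAAtagTTTTATatgacggc
*Cnot6*, chr11:49671509-49671538, minus strand: tcatagccaaccAATAAAttcaatatctgt
*Cnot2*, chr10:116485171-116485200, minus strand: tcttctctttgtAATAAAgtagaaaagctc
*Cnot9*, chr1:74530803-74530832, plus strand: caacaggattaaAATAAAacatgctgggtt
*Cnot11*, chr1:39546849-39546878, plus strand: agctgaaatgtaAATAAAataatttacaaa
Each stretch lies in the last exon, in the 3′ UTR. A match describes these letters only, and which 3′ end the oocytes used was not measured here.

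The authors deposited TPM, which are shares of a library per length of RNA, and the sequencing depth behind them is unknown. TPM were scaled between libraries by the median of ratios (scaled TPM), and limma was fitted to log2(scaled TPM + 1) over all genes, with Benjamini-Hochberg adjustment. A gene was called when its adjusted p was under 0.05 and its fold was over 2. The added 1 makes folds too small for RNAs with few TPM. All 12 oocyte markers were listed in every library, with 40386 to 52446 TPM in sum. Of 15 cumulus and granulosa markers, 6 or 7 were listed, summing to 36.2 to 49.2 TPM, most of it *Cyp19a1* and *Nr5a2*, while the defining markers *Amh*, *Foxl2*, *Inhba*, *Has2*, *Ptx3*, *Tnfaip6*, *Pgr* and *Amhr2* were not listed. *Inha*, a granulosa marker, moved with the groups, with 4.37 and 2.11 scaled TPM in GV, 0 and 0.532 in MII, 1.88 and 1.09 in Btg4wt, and 9.83 and 5.18 in Btg4tm oocytes (log2 fold change -1.72, adjusted p = 0.0048, in MII over GV and 1.74, adjusted p = 0.0061, in Btg4tm over Btg4wt). Other markers of that list went the other way on p alone (limma). They were *Kitl* (0.95, adjusted p = 0.0031) and *Cyp19a1* (0.63, adjusted p = 0.0039) in MII over GV. In Btg4tm over Btg4wt they were *Kitl* (-0.76, adjusted p = 0.012) and *Nr5a2* (-0.87, adjusted p = 0.0036). *Star* had the sign of *Inha* in both comparisons and passed neither test. *Fshr*, listed in the injection set only and so not tested, also lay higher in Btg4tm oocytes. It had 0.058 and 0.152 deposited TPM in Btg4wt and 0.468 and 1.42 in Btg4tm oocytes. The part of *Inha* in the subunit changes was not tested. Mitochondrially encoded RNA made up 0.625% and 0.651% of TPM in GV, 2.71% and 2.60% in MII, 2.07% and 1.77% in Btg4wt, and 0.774% and 1.03% in Btg4tm oocytes. Scaling to that RNA shifted the median of all genes by -1.74 in MII over GV and by 0.88 in Btg4tm over Btg4wt, so the directions that this scaling turned are named below. *Btg4* itself had 2650 and 2794 scaled TPM in GV, 5792 and 6002 in MII, 5178 and 5510 in the libraries labelled Btg4wt, and 3725 and 4068 in those labelled Btg4tm. By this scaling the injected oocytes thus had no more *Btg4* RNA captured by oligo(dT) than MII oocytes without overexpression. TPM per gene do not separate injected from endogenous RNA. These values do not tell whether BTG4 protein was overexpressed, which the study reports from immunoblots. Btg4wt and Btg4tm below therefore name libraries by their labels, also where a direction is given.

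Before any comparison, the levels were set in order. TPM are per length, which allows only a rough order between genes. Tails under oligo(dT) priming and reads dropped from shared sequence can differ by gene. The length behind each TPM was not examined here. *Cnot6l*, for instance, has 10313 exonic bases but a chosen transcript of 3170. These limits also hold for the shares and ratios between subunits below. In GV oocytes the order of mean scaled TPM was *Cnot7* (229.6 ± 15.98, SD, n = 2), *Cnot8* (209 ± 10.5), *Cnot11* (138 ± 8.50), *Cnot9* (135 ± 33.3), *Cnot2* (79.6 ± 0.05), *Cnot3* (75.2 ± 14.0), *Cnot6l* (30.5 ± 0.95), *Cnot10* (15.0 ± 2.27), *Cnot1* (11.9 ± 0.84) and *Cnot6* (4.66 ± 0.08). *Cnot11* and *Cnot9* were closer than the spread of their libraries, as were *Cnot2* and *Cnot3*. *Cnot7* lay at the 95.2nd percentile of the genes tested and the scaffold *Cnot1* at the 53.7th. In MII oocytes *Cnot7* was still first, at 578 ± 7.84, with *Cnot8* at 183 ± 5.10 and *Cnot3* at 157 ± 1.33 next, and *Cnot10* was last at 4.55 ± 1.48. *Cnot7* ranked first in all 4 groups.

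**Figure D1:**
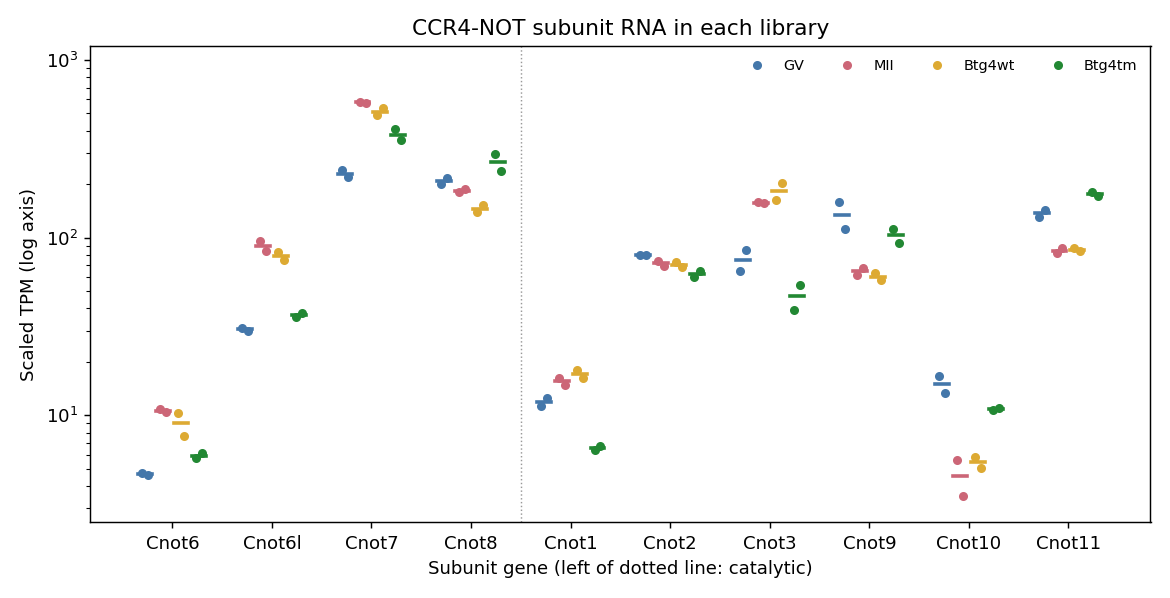
Scaled TPM of the 10 subunit RNAs (log axis) by gene, with 1 point per library, a bar at the mean of each group of 2, and colour for the group. *Cnot7* is the highest in every group (229.6 in GV and 578 in MII oocytes on average), and the Btg4tm points (green) lie apart from the Btg4wt points (yellow), least so in *Cnot2*.

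The first question was how the subunit RNAs moved from GV to MII, when maternal mRNA decay begins. Both CCR4-type RNAs, *Cnot7* and the NOT-module RNA *Cnot3* were called higher in MII than in GV oocytes, while *Cnot9* and *Cnot10* were called lower. That makes 4 of 10 higher and 2 of 10 lower, against 12.5% and 24% of all genes. At an adjusted p under 0.05 with no minimum fold, 4 were higher and 3 lower, against 29.8% and 32.8%. The median log2 fold change was 1.18 for the 4 catalytic RNAs and -0.42 for the 6 others, against 0.00 for all genes tested.

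Gene positions are those of GENCODE M21 on GRCm38. *Cnot7* (chr8:40492540-40515847, minus strand), the CAF1-type nuclease, had 241 and 218 scaled TPM in GV, 584 and 573 in MII, 490.4 and 535 in Btg4wt, and 409 and 353 in Btg4tm oocytes. The Btg4tm libraries lay between the GV and the Btg4wt libraries with no overlap. Its log2 fold change in MII over GV was 1.33 (standard error 0.11, adjusted p = 1.9e-05 from limma). *Cnot8* (chr11:58104153-58118594, plus strand), the other CAF1-type nuclease, had 202 and 216 in GV, 179.7 and 187 in MII, 139.7 and 152 in Btg4wt, and 294 and 236 scaled TPM in Btg4tm oocytes. *Cnot8* was lowest in Btg4wt and highest in Btg4tm oocytes. Its change in MII over GV, -0.19 (standard error 0.12, adjusted p = 0.21), did not pass the test.

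*Cnot6l* (chr5:96070333-96164171, minus strand), the CCR4-type nuclease with the higher level, had 31.2 and 29.8 scaled TPM in GV, 96.1 and 84.3 in MII, 82.6 and 74.6 in Btg4wt, and 35.6 and 37.7 in Btg4tm oocytes. GV and Btg4tm libraries were low and MII and Btg4wt libraries high, without overlap. In MII over GV, *Cnot6l* rose by 1.53 on the log2 scale (standard error 0.12, adjusted p = 1.4e-05). *Cnot6* (chr11:49671503-49712723, minus strand), its paralog, had 4.72 and 4.61 scaled TPM in GV, 10.8 and 10.5 in MII, 10.4 and 7.68 in Btg4wt, and 5.74 and 6.13 in Btg4tm oocytes. It followed *Cnot6l* at a lower level, and in MII over GV it rose by 1.04 on the log2 scale (standard error 0.19, adjusted p = 0.0014). With deposited TPM it rose by 0.90, under the fold minimum.

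*Cnot1* (chr8:95719451-95807464, minus strand), the scaffold, had 11.3 and 12.4 scaled TPM in GV, 16.3 and 14.9 in MII, 18.1 and 16.1 in Btg4wt, and 6.41 and 6.75 in Btg4tm oocytes. Btg4tm oocytes were the lowest group. In MII over GV its log2 change was 0.37 (standard error 0.15, adjusted p = 0.063), which did not pass the test although the libraries did not overlap. Of the *Cnot1* transcript, 12.3% is shared in stretches of 50 bases with *4930513N10Rik* and *Gm6158*.

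*Cnot3* (chr7:3645268-3661109, plus strand), of the NOT module, had 65.3 and 85.2 scaled TPM in GV, 158 and 156 in MII, 162 and 204 in Btg4wt, and 39.3 and 54.3 in Btg4tm oocytes. It had the lowest levels in Btg4tm and the highest in Btg4wt oocytes. Its log2 fold change in MII over GV was 1.06 (standard error 0.19, adjusted p = 0.0014), and 0.87 without GV replicate 1 and 0.91 with deposited TPM, both under the fold minimum. Of the chosen *Cnot3* transcript, 43.7% is shared in stretches of 50 bases with *Gm9207* or *Leng1*, and counting used no strand and dropped reads of low mapping quality, so the level of *Cnot3* is uncertain. *Gm9207* reached at most 0.819 deposited TPM. *Leng1*, on the opposite strand, moved the other way, with 17.4 and 24.8 scaled TPM in GV and 4.74 and 2.76 in MII oocytes. *Cnot2* (chr10:116485161-116581511, minus strand), the partner of *Cnot3*, had 79.7 and 79.6 scaled TPM in GV, 74.1 and 69.4 in MII, 72.6 and 68.0 in Btg4wt, and 60.4 and 64.6 in Btg4tm oocytes. Its largest difference between those 4 groups was smaller than 2-fold, and in MII over GV it was -0.15 on the log2 scale (standard error 0.10, adjusted p = 0.24).

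*Cnot9* (chr1:74506058-74530842, plus strand), which docks adaptors, had 159 and 111 scaled TPM in GV, 61.3 and 67.8 in MII, 62.9 and 57.7 in Btg4wt, and 112 and 93.5 in Btg4tm oocytes. The GV libraries were far apart, and the Btg4tm range overlapped them. The log2 fold change in MII over GV was -1.03 (standard error 0.17, adjusted p = 0.001). Without GV replicate 1 or without MII replicate 1 it was no longer over 2-fold, at -0.78 and -0.95, nor with quantile normalization, at -0.83, leaving *Cnot10* as the 1 subunit called lower. *Usp37*, which lies on the opposite strand and shares 4.1% of the *Cnot9* transcript, moved the other way (log2 fold change 1.19).

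*Cnot10* (chr9:114585878-114640184, minus strand) had 16.6 and 13.4 scaled TPM in GV, 5.59 and 3.51 in MII, 5.82 and 5.08 in Btg4wt, and 10.7 and 11.0 in Btg4tm oocytes. MII and Btg4wt libraries were low, and Btg4tm libraries lay between these and GV. Its log2 fold change in MII over GV was -1.55 (standard error 0.22, adjusted p = 0.00041), the largest fall among the subunits. *Cnot11* (chr1:39534992-39546889, plus strand), its module partner, had 132 and 144 scaled TPM in GV, 82.2 and 87.0 in MII, 87.3 and 83.9 in Btg4wt, and 180 and 172 in Btg4tm oocytes. Both Btg4tm libraries of *Cnot11* were above every other library. In MII over GV it passed the test on p but not on fold, at -0.69 (standard error 0.10, adjusted p = 4e-04).

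The second question was whether the injected groups differed, that is, what the alanine changes in BTG4 went with. *Btg4* RNA also differed between these groups, lower in Btg4tm by -0.46 on the log2 scale (adjusted p = 0.0057 from limma). The part of that difference in the subunit changes was not tested. *Cnot6l*, the scaffold *Cnot1* and *Cnot3* were called lower in Btg4tm than in Btg4wt oocytes, and *Cnot11* was called higher. Those 3 of 10 lower and 1 of 10 higher compare with 7.94% and 18.1% of all genes. With no minimum fold, 5 were lower and 4 higher, against 23.3% and 26.2%, and only *Cnot2* did not pass the test. The median log2 change was -0.48 for the 4 catalytic RNAs and 0.29 for the 6 others, against 0.01 for all genes.

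*Cnot3* had the largest change, -1.95 on the log2 scale (standard error 0.19, adjusted p = 8e-05), a fall from 183 ± 29.5 to 46.8 ± 10.6 scaled TPM (SD, n = 2). *Leng1* again moved the other way (log2 fold change 1.49, adjusted p = 0.0026). *Cnot1* changed by -1.25 (standard error 0.15, adjusted p = 0.00025), and *Cnot6l* by -1.08 (standard error 0.12, adjusted p = 0.00015). *Cnot11* rose by 1.03 (standard error 0.10, adjusted p = 7.3e-05), a value so near the 2-fold minimum that it was lost with quantile normalization and without Btg4wt replicate 2 or Btg4tm replicate 1.

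Past the test on p alone, *Cnot8* was higher in Btg4tm than in Btg4wt oocytes by 0.85 (standard error 0.12, adjusted p = 0.00065), *Cnot10* by 0.88 (0.22, adjusted p = 0.011) and *Cnot9* by 0.76 (0.17, adjusted p = 0.0072). *Gm18860*, which shares 16.6% of the *Cnot8* transcript in stretches of 50 bases, moved with it, from 29.8 and 34.4 scaled TPM in Btg4wt to 59.3 and 54.4 in Btg4tm oocytes, and its part in the *Cnot8* value was not tested. *Cnot6* was lower by -0.52 (0.19, adjusted p = 0.047) and *Cnot7* by -0.43 (0.11, adjusted p = 0.011). *Cnot2* differed by -0.17 (0.10, adjusted p = 0.21). The *Cnot6* value passed only without Btg4wt replicate 2 when libraries were left out in turn, and missed in the other 7 cases (adjusted p = 0.063 to 0.25). *Cnot7* missed without Btg4wt replicate 2 (0.07) or Btg4tm replicate 2 (0.051), and *Cnot10* without Btg4wt replicate 2 (0.061).

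**Figure D2:**
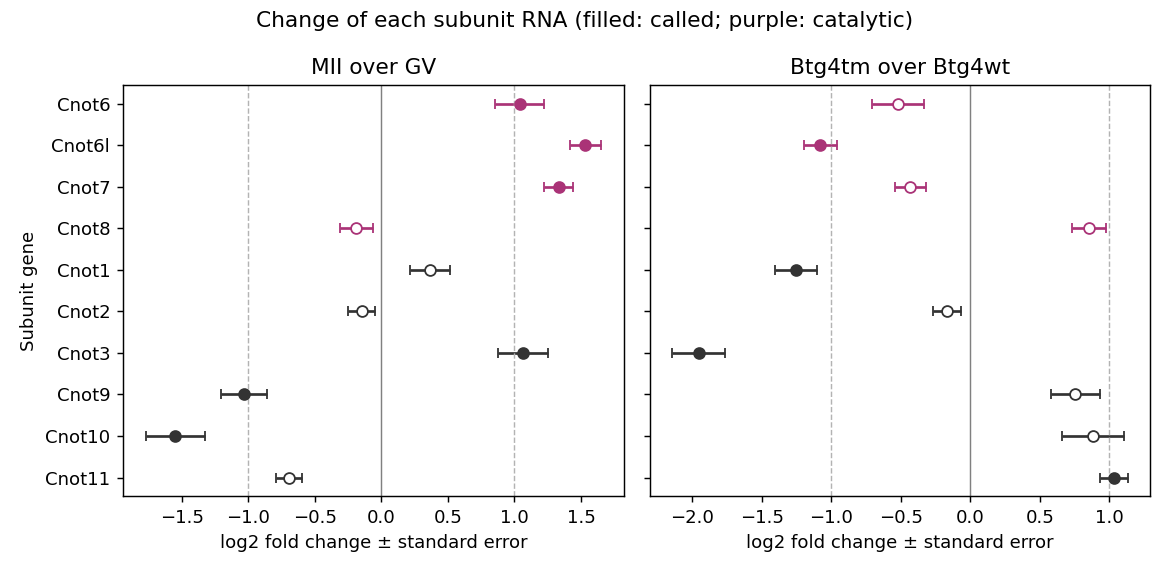
log2 fold change of each subunit RNA with its standard error (limma) in MII over GV and in Btg4tm over Btg4wt oocytes, purple for catalytic subunits and filled where called, with dashed lines at 2-fold. *Cnot6l*, *Cnot6*, *Cnot7* and *Cnot3* lie to the right in MII over GV and to the left in Btg4tm over Btg4wt, although under scaling to mitochondrial RNA all 4 are negative in MII over GV and *Cnot6* and *Cnot7* are positive in Btg4tm over Btg4wt.

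Set side by side, 9 of the 10 subunits had opposite signs in the 2 comparisons, which share no library. Among all genes tested 82.8% did, so this is near the background. *Cnot2* was the exception. By scaling to mitochondrial RNA, the signs of *Cnot6*, *Cnot6l*, *Cnot7*, *Cnot1* and *Cnot3* turned negative in MII over GV, and those of *Cnot6*, *Cnot7* and *Cnot2* turned positive in Btg4tm over Btg4wt, where *Cnot6l* (-0.01), *Cnot1* (-0.26) and *Cnot3* (-0.88) were no longer called. Deposited TPM, median of ratios and mitochondrial scaling differ only by a factor per library. Subtracting the median of all genes removes that factor, apart from the effect of the added 1. The match of signs among them was thus largely set in advance and does not decide between bases. Relative to the median of all genes under scaling to mitochondrial RNA, no subunit changed sign in MII over GV. There *Cnot6l* stood at 1.10, *Cnot7* at 0.86, *Cnot6* at 0.84, *Cnot3* at 0.61 and *Cnot1* at 0.05. In Btg4tm over Btg4wt only *Cnot2* changed sign relative to the median, to 0.03, and *Cnot3* stood at -1.75, *Cnot1* at -1.14, *Cnot6l* at -0.89 and *Cnot11* at 1.24.

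**Figure D3:**
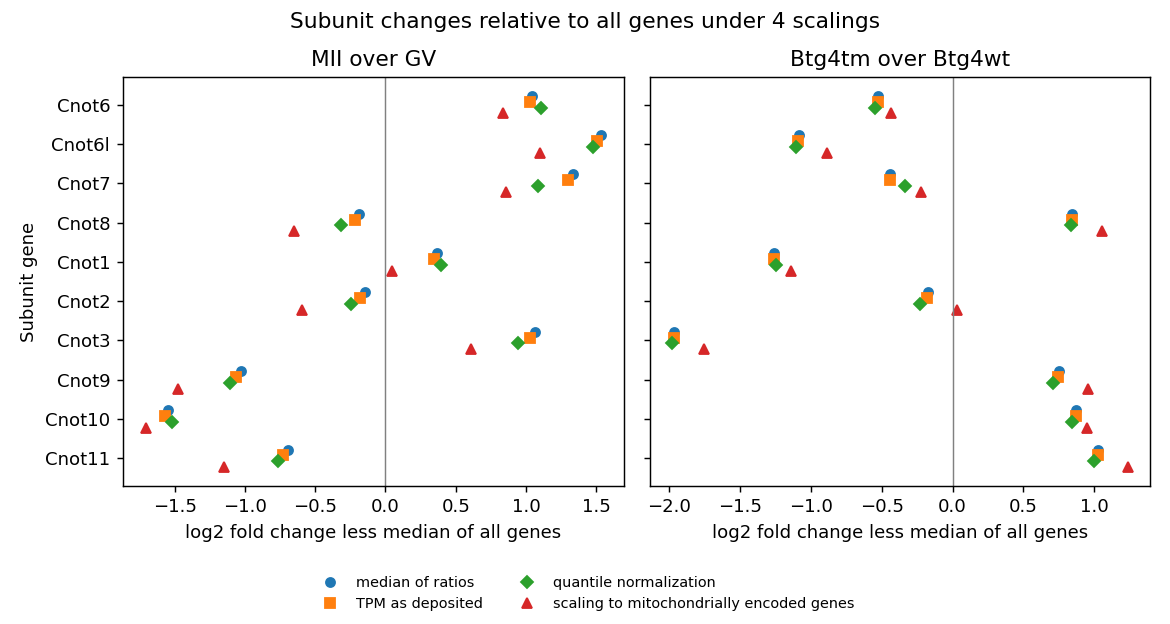
log2 fold change of each subunit RNA less the median of all genes, for median of ratios, deposited TPM, quantile normalization and scaling to mitochondrially encoded genes, in both comparisons. Each gene keeps its side of 0 under all 4 except *Cnot2* in Btg4tm over Btg4wt (0.03 with mitochondrial genes), and *Cnot1* is near 0 in MII over GV with mitochondrial genes (0.05).

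Catalytic subunits were then compared with the scaffold inside each library, which takes scaling out apart from the effect of the added 1. That effect is largest for RNAs with few TPM, among them *Cnot1*. All these tests share the *Cnot1* values, so they are not separate results. In MII over GV, *Cnot6l* (1.17, standard error 0.13), *Cnot7* (0.96, standard error 0.16), *Cnot3* (0.70, standard error 0.20) and *Cnot6* (0.67, standard error 0.19) rose relative to *Cnot1*. *Cnot8* fell relative to *Cnot1* (-0.56, standard error 0.16), and so did *Cnot2*, *Cnot9*, *Cnot10* and *Cnot11*. Thus 3 of the 4 catalytic RNAs were higher relative to the scaffold and all 9 subunits passed the test, 4 higher and 5 lower, against 16% and 41.3% of all genes. Adjusted p ran from 6.7e-05 for *Cnot6l* to 0.017 for *Cnot8*. Without MII replicate 2 the number higher fell to 2.

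Relative to the scaffold, 7 of 9 subunits were higher in Btg4tm than in Btg4wt oocytes, 1 was lower (*Cnot3*) and 1 was not called (*Cnot6l*). Since *Cnot1* itself fell, 83% of all genes were higher relative to it and 0.924% lower, and the rest were not called. The 7 higher and the 1 not called are thus near the background, and only *Cnot3* is an exception to it. *Cnot6l* differed from *Cnot1* by 0.18 (standard error 0.13, adjusted p = 0.24). *Cnot7* rose relative to *Cnot1* by 0.82 (standard error 0.16, adjusted p = 0.0012) and *Cnot8* by 2.10 (standard error 0.16, adjusted p = 3.4e-06). *Cnot3* fell relative to *Cnot1* by 0.70 on the log2 scale (standard error 0.20, adjusted p = 0.0084), a call lost without Btg4wt replicate 2 or without Btg4tm replicate 1.

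In TPM summed over the subunits, catalytic RNAs made up 50.8% and 51.3% in GV, 68.7% and 68.2% in MII, 63.9% and 63.9% in Btg4wt, and 64.5% and 61.1% in Btg4tm oocytes. The catalytic share was thus lowest in GV oocytes, and the injected groups overlapped. No test is given for these shares, which rest on 2 libraries per group. On the log2 scale the ratio of catalytic to other subunits was higher in MII than in GV by 1.06, of which 0.41 was left without *Cnot7*. Between Btg4tm and Btg4wt it differed by -0.07, and the sign turned positive with quantile normalization, without *Cnot7*, against *Cnot1* alone or without Btg4tm replicate 2.

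The make-up of the CAF1-type pair moved more between the injected groups than the catalytic share did. The limit on *Cnot8* from sequence shared with *Gm18860*, given above, holds here too. *Cnot7* gave 54.4% and 50.2% of the CAF1-type pair in GV, 76.5% and 75.4% in MII, 77.8% and 77.9% in Btg4wt, and 58.2% and 59.9% in Btg4tm oocytes. The Btg4tm libraries were thus nearer to GV than to MII, and GV, Btg4tm and MII libraries did not overlap. *Cnot6l* gave 86.0% to 90.7% of the CCR4-type pair in every library. CAF1-type RNA was 12.3 and 12.6 times CCR4-type RNA in GV, 7.14 and 8.01 times in MII, 6.78 and 8.35 times in Btg4wt, and 17.0 and 13.4 times in Btg4tm oocytes.

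The non-catalytic modules were not held at a fixed ratio either. *Cnot3* RNA was 0.82 and 1.07 times that of *Cnot2* in GV, 2.13 and 2.25 times in MII, 2.23 and 2.99 times in Btg4wt, and 0.651 and 0.84 times in Btg4tm oocytes, with the uncertainty of *Cnot3* given above. *Cnot11* RNA was 7.9 and 10.7 times that of *Cnot10* in GV, and 14.7 to 24.8 times in the other 6 libraries. The share of *Cnot1* in the summed TPM was 1.20% and 1.36% in GV, 1.28% and 1.19% in MII, and 1.60% and 1.34% in Btg4wt, but 0.556% and 0.652% in Btg4tm oocytes.

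**Figure D4:**
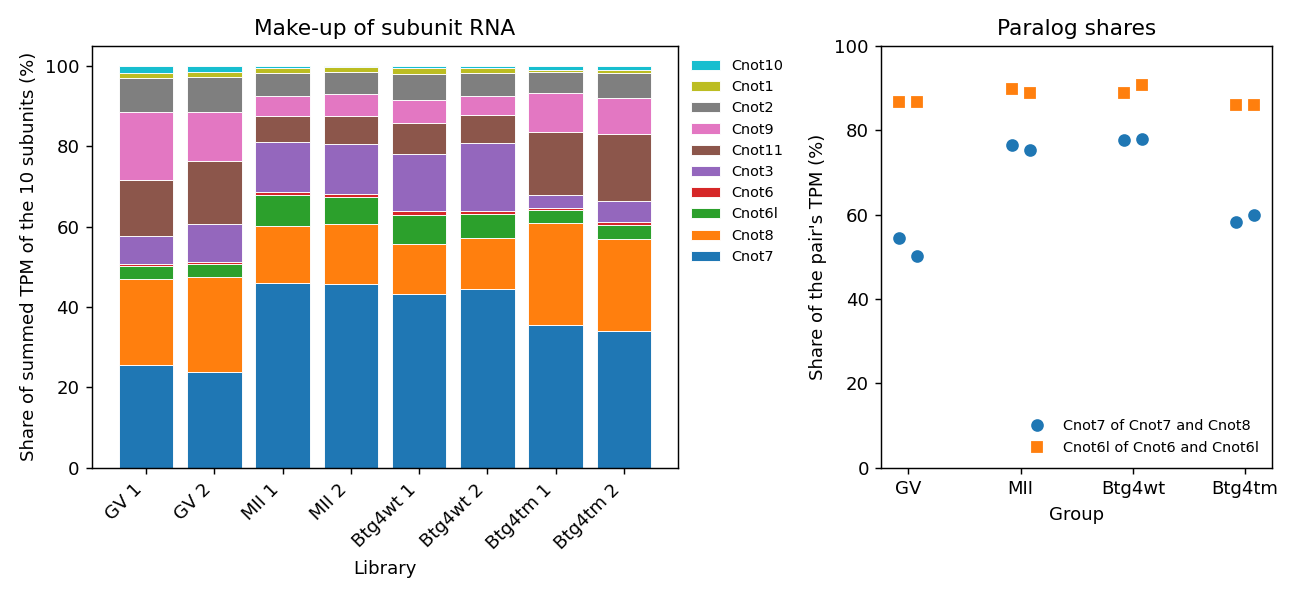
Left, share of each subunit in the summed TPM of the 10 subunits (%) in each library, from 0 to 100. Right, share of *Cnot7* in *Cnot7* and *Cnot8* and of *Cnot6l* in *Cnot6* and *Cnot6l* (%) by group, with 1 point per library. The *Cnot7* share is 50.2% to 54.4% in GV, 75.4% to 77.9% in MII and Btg4wt, and 58.2% and 59.9% in Btg4tm oocytes, while the *Cnot6l* share is 86.0% or more throughout.

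Against MII oocytes, Btg4wt oocytes showed no subunit change that passed the test. limma called 0 of 13968 genes in this comparison (0% higher and 0% lower with the fold minimum, and 0% higher and 0% lower without it), and 1655 genes, of which 1 was a subunit, had an unadjusted p under 0.05. That was *Cnot8*, at -0.33 (standard error 0.12, adjusted p = 0.36). All 10 log2 differences lay between -0.33 and 0.24. The 2 groups belong to different sets of tables, so injection and any batch between the sets cannot be told apart.

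Against GV oocytes, Btg4tm oocytes had 0 of 10 subunits called, as 1.02% of all genes were called higher and 1.02% lower. Past p alone, *Cnot7* was higher by 0.73 (standard error 0.11, adjusted p = 0.0073) and *Cnot1* lower by -0.76 (standard error 0.15, adjusted p = 0.019), that is 1 of 10 in each direction against 7.66% and 3.73% of all genes. Without GV replicate 2 neither passed (adjusted p = 0.051 for *Cnot7* and 0.12 for *Cnot1*), and *Cnot1* also missed without GV replicate 1 (0.055) or Btg4tm replicate 1 (0.066). Under scaling to mitochondrial RNA *Cnot7* was higher by 0.09 (adjusted p = 0.75), and 4 subunits were called lower, *Cnot1* (-1.39), *Cnot3* (-1.31), *Cnot10* (-1.05) and *Cnot9* (-1.004). *Cnot3*, at -0.68 (adjusted p = 0.056), and *Cnot11*, at 0.36 (adjusted p = 0.054), missed the test. *Cnot3* passed on p with deposited TPM (adjusted p = 0.027), with quantile normalization (0.044), with a filter at 5 TPM (0.043) and without Btg4tm replicate 2 (0.04), *Cnot11* with that filter (0.041), and *Cnot2* (-0.35, adjusted p = 0.067) with deposited TPM (0.023) and quantile normalization (0.034). Meiotic stage, injection, the alanine changes and any batch between the sets all differ in this comparison and cannot be told apart.

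Across the 8 libraries the subunits fell into patterns, given as description, since all of them share the same libraries. *Cnot6l* had a Pearson correlation of 0.97 with *Cnot6* and 0.91 with *Cnot7*, and of -0.94 with *Cnot10* and -0.92 with *Cnot9*. *Cnot3* had 0.94 with *Cnot1* and -0.97 with *Cnot11*. The paralogs *Cnot7* and *Cnot8* had -0.44, and *Cnot2* had between -0.45 and 0.57 with every other subunit. Among the 6874 genes whose scaled TPM averaged 10 or more, those most like *Cnot6l* were *Eea1* (0.998), *Tmtc3* (0.997) and *Kdm6a* (0.997), and those most like *Cnot7* were *Klf17* (0.998), *Tiparp* (0.998) and *Fam118a* (0.997). *Eea1*, for instance, had 20.7 and 20.5 scaled TPM in GV, 53.3 and 48.8 in MII, 46.3 and 45.9 in Btg4wt, and 24.6 and 25.1 in Btg4tm oocytes.

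Partners of the complex were described by lists, whose counts are to be read against 12.5% of all genes called higher and 24% lower in MII over GV, and 18.1% higher and 7.94% lower in Btg4tm over Btg4wt. Of the associated subunits, *Cnot4*, a ubiquitin ligase, rose in MII over GV (1.30, adjusted p = 7.4e-05), and *Tnks1bp1* passed on p alone (0.78). In Btg4tm over Btg4wt, 0 of these 2 were called, and *Cnot4* was lower on p alone (-0.82). Of 6 BTG/TOB adaptors, which bind the CAF1 subunits, 2 were called higher in MII over GV, *Btg1* (1.51) and *Btg4* (1.12), and 1 lower, *Tob1* (-2.24), with a median of 0.46, against 12.5% and 24% of all genes. *Tob1* was the 1 called in Btg4tm over Btg4wt, higher by 1.53, with a list median of -0.37, and 1 of 6 is near the 18.1% of all genes. With no fold minimum 1 of 6 was higher and 2 lower, against 26.2% and 23.3% of all genes. The 2 lower were *Tob2* (-0.67) and *Btg4* (-0.46).

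Of 19 RNA-binding recruiters, proteins that carry the complex to its targets or hold mRNA in store, 15 were tested, and 4 were called higher and 2 lower in MII over GV (median 0.57), against 12.5% and 24% of all genes. The largest were *Tnrc6c* (1.57), the miRNA effector, *Dazl* (1.21) and *Rc3h1* (1.21) upward, and *Ybx2* (-2.02) and *Cpeb1* (-1.30), which store and mask maternal mRNA, downward. Between the injected groups, *Ybx2* was called higher in Btg4tm (1.94) and *Tnrc6b* (-1.22) and *Rc3h1* (-1.17) lower, with a list median of -0.55, and these 1 and 2 of 15 are near the 18.1% and 7.94% of all genes. With no fold minimum 2 of 15 were higher and 7 lower, against 26.2% and 23.3% of all genes.

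Of 9 other deadenylases, 3 were called higher in MII over GV, namely *Pan3* (2.14), *Angel2* (1.48) and *Noct* (1.03), and 2 lower, *Pnldc1* (-2.87) and *Pde12* (-1.34), with a median of 0.51, against 12.5% and 24% of all genes, so that the number lower is near the background. Btg4tm oocytes differed from Btg4wt oocytes in 2 of them, as *Pnldc1* was called higher (2.22) and *Pan2*, the nuclease partner of PAN3, lower (-1.17), with a list median of -0.59, and 1 of 9 in each direction is near the 18.1% and 7.94% of all genes. With no fold minimum 2 of 9 were higher and 5 lower, against 26.2% and 23.3% of all genes. *Pan3* was the 1 gene of these lists called in Btg4tm over GV (1.38, adjusted p = 0.0041).

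Of 11 decapping and decay partners, which act once the tail is short, 9 were tested, and in MII over GV 4 were called higher, led by *Dcp1a* (1.32), *Dcp2* (1.26) and *Patl1* (1.17), and 1 lower, *Patl2* (-1.90), against 12.5% and 24% of all genes. Of the same 9, 0 were called higher and 4 lower in Btg4tm over Btg4wt, led by the decapping enzyme *Dcp2* (-1.69), the helicase *Ddx6* (-1.51) and *Dcp1a* (-1.41), against 18.1% and 7.94% of all genes. With no fold minimum 1 was higher and 8 of 9 lower, against 26.2% and 23.3%. The list median was 0.85 in MII over GV and -0.81 in Btg4tm over Btg4wt, and turned to -1.22 and 0.21 under scaling to mitochondrial RNA. Under scaling to mitochondrial RNA the called genes *Cnot4*, *Btg1*, *Btg4*, *Dazl*, *Rc3h1*, *Tnrc6b*, *Tnrc6c*, *Angel2*, *Noct*, *Dcp1a*, *Dcp2*, *Patl1* and *Xrn1* turned negative in MII over GV, but relative to the median of all genes 0 called genes of the 5 lists changed sign under any of the 4 scalings. By that scaling the medians of all 5 lists turned, to between -1.61 and -1.06 in MII over GV and to between 0.21 and 0.64 in Btg4tm over Btg4wt, and less the median of all genes they kept their signs. As above, subtracting the median of all genes removes a factor per library, so outside quantile normalization these kept signs were largely set in advance.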

How the data were processed

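Poly(A) RNA of mouse oocytes was profiled by Smart-seq2 in 8 libraries. The authors trimmed reads with Trim Galore 0.6.10, aligned them to GRCm38 with HISAT2 2.2.0, counted exons without strand with featureCounts 2.0.6 (reads of low mapping quality dropped), and deposited TPM per gene symbol. The tables hold TPM and no counts, so depth and counting error are unknown, and limma replaced the count model of the study. A total of 17384 genes are in the control set and 16448 in the injection set, and the 15962 in both were used. Scaling by the median of ratios was followed by a filter at 1 TPM in 2 libraries (13968 genes) and a fit of log2(TPM + 1) with limma 3.58.1 in R 4.3.3 over all libraries (eBayes with trend). The fit and the calling were tried on simulated data with independent noise and few changed genes. In the comparisons here far more genes moved, so that trial does not test the scaling or these calls. Calls needed a Benjamini-Hochberg adjusted p under 0.05 and a log2 fold change over 1. Members and lists were chosen with earlier results of these data known. Named genes were the 10 subunits, at most 3 called genes per direction in each list with the largest change, and the 3 genes most like *Cnot6l* and *Cnot7*. Genes in stated exceptions were named after their values were seen. Loci and shared 50-base stretches came from GENCODE M21. Alternatives were other scalings, a pseudocount of 0.1, no filter or one at 5 TPM, fewer libraries, a replicate block, eBayes without trend, an adjusted p under 0.01 and leaving out each library.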

Additional observations from a re-analysis of the deposited data

How the results depend on the processing

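The limits are 2 libraries per group, TPM without depth, and a base for scaling that the data do not fix. Scaling to mitochondrial RNA gave 0 subunits called higher and 7 lower in MII over GV, 4 higher and 0 lower in Btg4tm over Btg4wt, and 4 lower in Btg4tm over GV. The reversed log2 fold changes in MII over GV were -0.90 for *Cnot6*, -0.64 for *Cnot6l*, -0.88 for *Cnot7*, -1.70 for *Cnot1* and -1.14 for *Cnot3*. In Btg4tm over Btg4wt they were 0.44 for *Cnot6*, 0.65 for *Cnot7* and 0.90 for *Cnot2*. In Btg4wt over MII, where no subunit passed a test, they were 0.21 for *Cnot6*, 0.29 for *Cnot6l*, 0.32 for *Cnot7*, 0.16 for *Cnot8*, 0.46 for *Cnot2* and 0.39 for *Cnot9*, and in Btg4tm over GV -0.26 for *Cnot6*, -0.36 for *Cnot6l*, -0.30 for *Cnot8* and -0.27 for *Cnot11*. All genes moved with this base, by medians of -1.74 and 0.88.

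Deposited TPM gave 2 higher in MII over GV. Quantile normalization gave 1 lower in MII over GV, 0 higher in Btg4tm over Btg4wt, and 0.038 for *Cnot2* in MII over GV. Over all genes, quantile normalization called 3154 higher and 2662 lower in MII over GV and 2055 and 1810 in Btg4tm over Btg4wt, where the reported fit had 1752 and 3351, and 2534 and 1109. With no minimum fold, Btg4tm over Btg4wt had 4 higher and 5 lower, and Btg4tm over GV 1 higher and 1 lower. With only the 4 libraries of the comparison *Cnot11* in Btg4wt over MII was -0.001. Leaving out 1 library assumes that the lone one varies like the other groups. It gave 1 to 2 lower in MII over GV, 0 to 2 higher in Btg4tm over Btg4wt, 2 to 4 higher relative to *Cnot1* in MII over GV, and 0 to 1 lower relative to *Cnot1* in Btg4tm over Btg4wt. In Btg4wt over MII it turned small values that pass no test, with ranges of -0.076 to 0.023 for *Cnot2*, -0.021 to 0.057 for *Cnot11* and -0.036 to 0.516 for *Cnot10*.

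The log2 ratio of catalytic to other subunits in MII over GV was 1.26 from means of log2 values, 0.95 with quantile normalization, 0.41 without *Cnot7* and 0.47 against *Cnot1* alone. In Btg4tm over Btg4wt it was -0.18, 0.024, 0.45 and 1.26 in the same order, and from -0.172 without Btg4tm replicate 1 to 0.04 without Btg4tm replicate 2. In Btg4wt over MII it was -0.31, -0.26, -0.37 and -0.34, and in Btg4tm over GV 0.49 without *Cnot7* and 1.38 against *Cnot1* alone. The cause of these moves was not tested.

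Same-numbered libraries did not deviate together (correlations of -0.05 to 0.06), so the numbers were not taken to pair them. With a replicate block 5094 genes were called in MII over GV (5103 without it), 3636 in Btg4tm over Btg4wt (3643), 1 in Btg4wt over MII (0) and 285 in Btg4tm over GV (285). The block took *Cnot6* in Btg4tm over Btg4wt to an adjusted p of 0.057 (0.047 without it) and *Cnot3* in Btg4tm over GV to 0.025 (0.056), and changed no count of subunits called with the fold minimum.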
